A study of Drosophila melanogaster with 2 samples.

Results

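Of the 4278 sites in the authors' list of CG2875 peaks thresholded by the irreproducible discovery rate (IDR), 549 lay deep inside introns (12.8%, exact 95% interval 11.8 to 13.9%). A peak was counted here when its summit was more than 5000 bp from the nearest annotated transcription start site (TSS) of any gene, inside a gene body and in no exon of any gene, on the dm6 assembly with transposable elements left out. All values rest on 1 group of 2 biological replicates, chromatin from whole embryos aged 0 to 14 h, of mixed sex. The embryos came from a transgenic line in which CG2875, a gene known by its annotation number, is stably expressed with green fluorescent protein (GFP) at its C-terminus. Anti-GFP antibody recovered the DNA, which had been sonicated to fragments of 200 to 800 bp. The labels do not name the promoter that drives the transgene. A whole embryo mixes cell types and stages, so the cells in which a site was bound cannot be told apart. Peak lists hold no read totals, and the depth of the libraries is unknown.

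Chromatin immunoprecipitation followed by sequencing (ChIP-seq) finds the DNA that a protein contacts directly or through partners. In Drosophila, long introns are a common place for enhancers, the elements that switch genes on in particular tissues, and genes for developmental regulators often have introns far longer than their coding sequence. A site in such an intron can act on its host gene or on a neighbour, so the host names below are positions and not assigned targets.

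The sequences at the strongest sites show what lies under these peaks. Each run is 101 bases centred on the summit, on the plus strand of dm6, and capitals mark the word CACTG or its reverse complement CAGTG. It was the 5-letter word most enriched in windows that reach 100 bp to each side of these summits. The first 7 runs are 7 of the 8 strongest deep intronic peaks on X, 2L, 3L and 3R, named by host gene, with signals of 664 or more, and the other one is not shown.

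Gug (chr3L:8458299-8458399): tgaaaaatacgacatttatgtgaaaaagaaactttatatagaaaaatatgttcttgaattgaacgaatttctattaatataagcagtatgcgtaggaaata
S (chr2L:1072353-1072453): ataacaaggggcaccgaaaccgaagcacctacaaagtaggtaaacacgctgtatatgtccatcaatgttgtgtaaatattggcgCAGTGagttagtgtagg
Hr4 (chrX:1947712-1947812): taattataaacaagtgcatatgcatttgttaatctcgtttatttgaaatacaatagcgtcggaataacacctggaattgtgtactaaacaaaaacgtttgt
simj (chr3L:10682939-10683039): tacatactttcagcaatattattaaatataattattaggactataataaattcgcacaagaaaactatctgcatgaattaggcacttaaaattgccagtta
CG32486 (chr3L:3060776-3060876): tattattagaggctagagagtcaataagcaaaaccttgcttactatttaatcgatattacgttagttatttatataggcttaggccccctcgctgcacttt
JIL-1 (chr3L:11084681-11084781): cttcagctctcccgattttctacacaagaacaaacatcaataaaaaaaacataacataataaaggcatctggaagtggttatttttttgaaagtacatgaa
tara (chr3R:16236950-16237050): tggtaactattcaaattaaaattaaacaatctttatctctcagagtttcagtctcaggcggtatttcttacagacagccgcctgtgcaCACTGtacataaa

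The hosts of these peaks included several regulators of transcription and signalling. Gug encodes the Atrophin corepressor, S (Star) acts in the release of ligands for the epidermal growth factor receptor, and Hr4 is a nuclear receptor of the ecdysone response. The product of simj is a subunit of the nucleosome remodelling complex NuRD, JIL-1 is a histone H3 kinase, and tara encodes a cofactor linked to chromatin regulation and the cell cycle. In these 101 bases, 2 of the 7 sequences held the word, and GC content ran between 23.8% in Gug and 43.6% in S. Over all 549 peaks the share with the word within 50 bp of the summit was 19.7%. Windows of 100 bp centred 300 to 900 bp away held it in 11.7 to 17.5%, so the word was little enriched in runs this short.

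The next 3 runs are the strongest peaks of the 3 host genes on the same arms with the most deep intronic peaks. The gene kirre encodes an adhesion protein of muscle founder cells, hth encodes a homeodomain cofactor of Hox proteins, and SKIP encodes a protein named for its interaction with the Shal potassium channel.

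kirre (chrX:3046085-3046185): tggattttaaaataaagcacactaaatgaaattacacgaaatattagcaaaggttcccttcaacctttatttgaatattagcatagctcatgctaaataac
hth (chr3R:10597758-10597858): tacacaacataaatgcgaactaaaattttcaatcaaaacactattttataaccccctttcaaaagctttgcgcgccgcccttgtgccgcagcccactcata
SKIP (chr3R:22146079-22146179): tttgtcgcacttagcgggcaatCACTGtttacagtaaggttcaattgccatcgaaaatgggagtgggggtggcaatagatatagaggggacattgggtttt

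Signals at deep intronic peaks were moderate. The authors' signal value, a caller's score for enrichment, ran over the 549 peaks between 120 and 1582, with a median of 179 and quartiles at 141 and 248. Promoter peaks, with a summit within 500 bp of a TSS, had a median of 196 (n = 1777), a ratio of 0.916 for deep intronic over promoter peaks. In lists of equal length from single replicates, the ratio was 0.846 for replicate 1 and 0.974 for replicate 2. Both were below 1, and their SD of 0.0907, from 2 values only, was larger than the distance of the pooled ratio from 1. In the whole relaxed lists, which also hold background, the ratio was 0.807 for replicate 1 and 0.762 for replicate 2. Median signals were 187 for intronic peaks 1 to 5 kb from a TSS (n = 885) and 170 for intergenic peaks over 5 kb away (n = 195).

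Deep intronic peaks were scarce at the top of the ranking. They made up 5 of the 100 strongest IDR peaks and 31 of the strongest 500 (6.20%, exact interval 4.25 to 8.69%). The share was 11.0% over the next 500 ranks, 14.9% and 13.0% over the following steps of 1000 and 14.4% for the rest of the list. Below the IDR list, the pooled peaks ranked 10001 to 20000 were deep intronic in 17.0% of cases and those ranked 20001 to 30000 in 19.2%. These last ranks hold background by design, and deep intronic sequence itself made up 21.1% of the 6 chromosome arms.

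The strongest site was in sbb (scribbler), which encodes a transcriptional corepressor. Its peak covered 2R positions 18336860 to 18337395, in an intron of 49364 bp and 20114 bp from the nearest TSS. The pooled signal there was 1582, rank 9 of all IDR peaks, with 597 in replicate 1 (rank 26) and 982 in replicate 2 (rank 7). Further sbb peaks of 675 and 535 lay on either side of it, the stronger 1357 bp away, and the same intron held 5 more between 120 and 274.

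The next site lay where the nuclear receptor gene Hr3 overlaps CG12912 and CG46321, at 2R positions 10219898 to 10220270. Its signal was 1038, with 547 in replicate 1 and 490 in replicate 2. Gug followed at 988, with 451 in replicate 1 and 537 in replicate 2. The S peak had a signal of 954, with 404 in replicate 1 and 561 in replicate 2, and the Hr4 peak had 823, with 410 in replicate 1 and 396 in replicate 2. Both replicates placed these 5 sites far above the deep intronic medians of 79.1 in replicate 1 and 101 in replicate 2. The sites were chosen by pooled signal, which draws on both replicates, so high values in each are favoured in advance.

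The other sites named here from the strongest 20 had signals between 532 and 701, apart from the stronger of 2 in simj. CG32486 had 701, with 329 in replicate 1 and 372 in replicate 2. Of the 2 simj sites, the stronger had 755, with 384 in replicate 1 and 372 in replicate 2, and the weaker had 619. JIL-1 had 668, with 328 in replicate 1 and 333 in replicate 2, and tara had 664, with 333 in replicate 1 and 331 in replicate 2. Signals of the 2 lists have no common scale, and over all deep intronic peaks the median ratio of replicate 2 over replicate 1 was 1.23. CG6959 had a signal of 662, Raf, a kinase of the MAP kinase cascade, had 648, and gukh, a scaffold protein gene, had 610. Sites in caps (590), which encodes a leucine-rich repeat adhesion protein, apt (538), a transcription factor gene, fra (533), the netrin receptor gene, and vn (532), a ligand gene of the epidermal growth factor receptor, were the weakest of these.

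Most deep intronic peaks were found again in both replicates at matched list length. In each replicate the 4278 strongest peaks were searched for one with a reciprocal overlap of 50% or more. Both replicates had such a match for 318 of the 549 peaks (57.9%, exact interval 53.7 to 62.1%), against 59.9% of all IDR peaks. That background lies inside the interval. A further 171 matched in 1 replicate only, 79 in replicate 1 and 92 in replicate 2, and 60 matched in neither. With any overlap of 1 bp counted, 73.8% matched in both. Across the 548 peaks that overlapped a peak in each relaxed replicate list, signals had Spearman's rho = 0.645 and Pearson's r = 0.707 on log2 values, a description across peaks that share the 2 libraries and the call on both together. An example of a site carried by 1 replicate is the weakest sbb peak, where the signal of 120 stood beside 19.5 in replicate 1 and 96.5 in replicate 2.

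**Figure D1:**
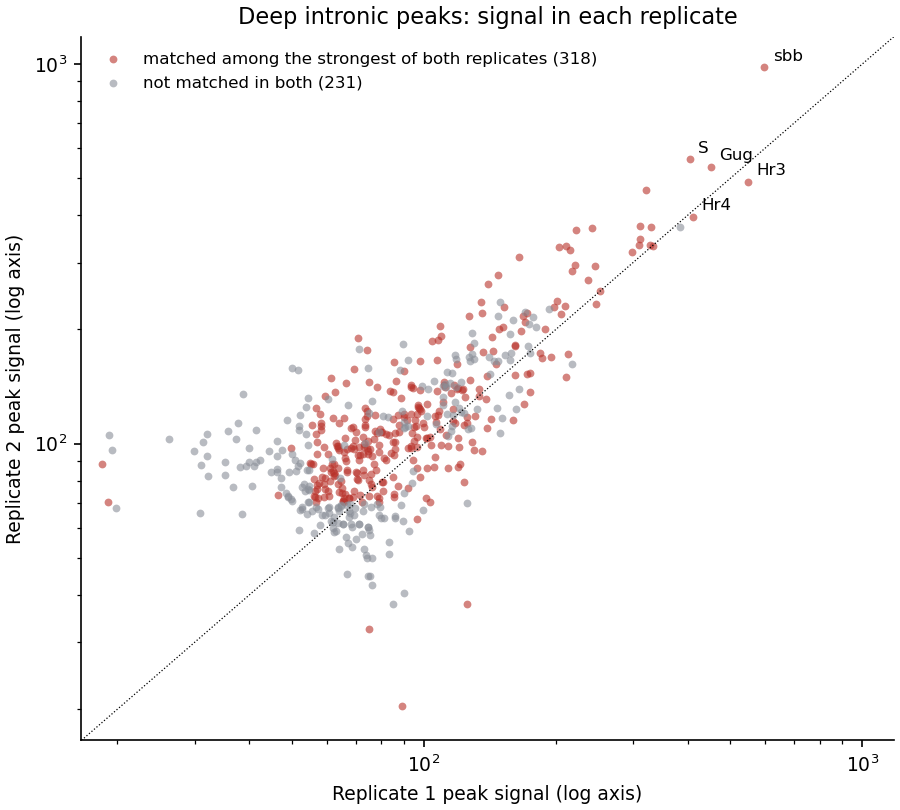
Signal of each deep intronic peak in replicate 1 (horizontal, log axis) and replicate 2 (vertical, log axis), taken from the overlapping replicate peak with the nearest summit. Red points are the 318 peaks matched at 50% reciprocal overlap among the strongest peaks of both replicates, grey points the other 231, and the dotted line marks equal values. The 5 named sites stand apart at the upper right.

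Relative to the amount of sequence, deep introns were sparsely bound. Their 28.3 Mb held 19.4 peaks per Mb, against 97.9 per Mb within 500 bp of a TSS, 43.9 per Mb in introns 1 to 5 kb away and 32.0 per Mb over all arms. Intergenic sequence over 5 kb from a TSS held fewer, 9.70 per Mb. Per Mb of bases not soft-masked as repeats or low complexity, the density was 26.2 in deep introns, against 115 at promoters and 14.4 in intergenic sequence over 5 kb away.

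Within introns the density fell with each step away from the TSS. It was 50.7 peaks per Mb between 1000 and 2500 bp and 37.5 between 2500 and 5000 bp, outside the distance limit. Deep introns then held 31.5 per Mb between 5000 and 7500 bp (206 peaks), 27.7 between 7500 and 10000 bp (125 peaks), 19.1 between 10000 and 20000 bp (164 peaks) and 6.24 beyond 20000 bp (54 peaks). Per Mb of bases not soft-masked, the same bands held 40.3, 35.8, 25.1 and 9.28. Median signals changed little along these 4 bands, at 191, 182, 170 and 165. Across the 549 peaks, Spearman's rho between signal and distance was -0.04.

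**Figure D2:**
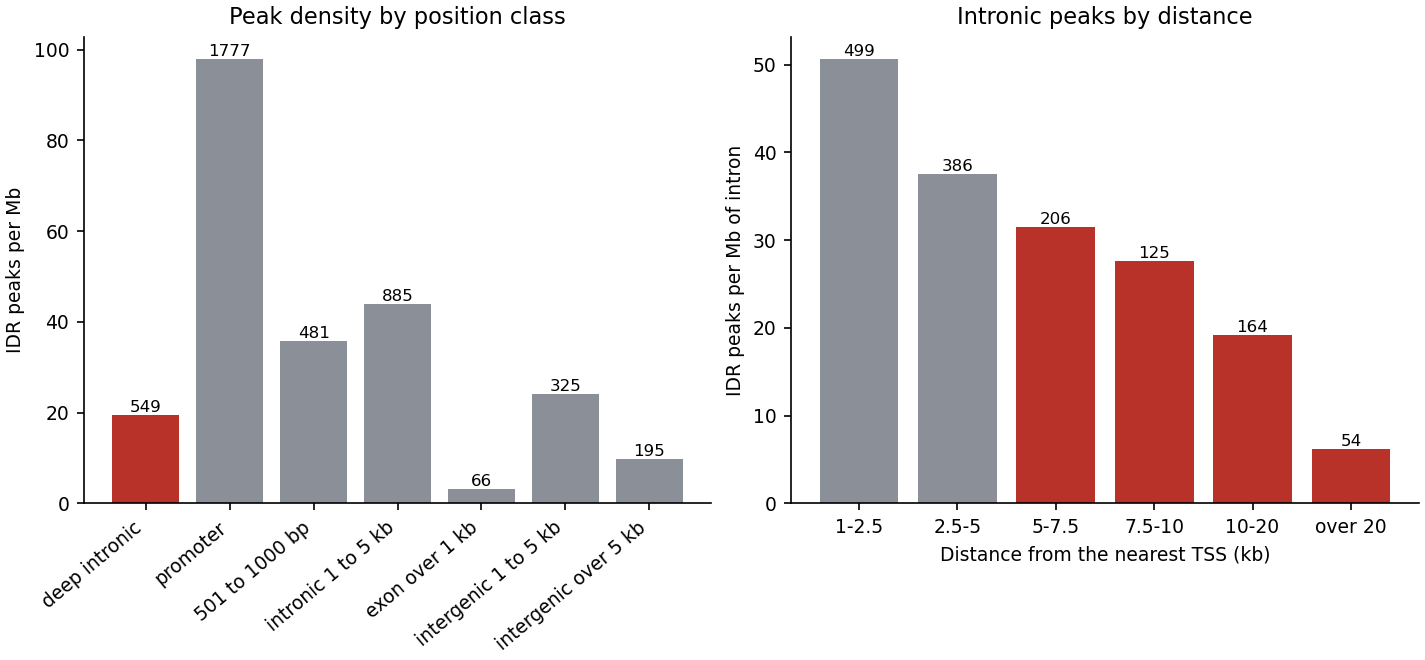
Left, IDR peaks per Mb of sequence in each position class (vertical), with the number of peaks above each bar and deep intronic peaks in red. Right, the same density within introns by distance from the nearest TSS in kb (horizontal), where the 4 red bars are the deep intronic bands and fall to 6.24 per Mb beyond 20 kb.

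The distance limit cut through a continuous range. Just inside it lay peaks in sano (signal 132, 5001 bp) and in cno (261, 5005 bp), and just outside it peaks in NetB (134, 4997 bp) and in tara (146, 4992 bp). The median distance was 8642 bp, and 218 of the 549 peaks (39.7%) were over 10000 bp from a TSS. The farthest 2 were both in hth, 49837 and 47605 bp away, with signals of 154 and 156.

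By arm, deep intronic peaks numbered 122 on X, 106 on 2L, 80 on 2R, 102 on 3L and 139 on 3R, and chromosome 4 had 0 of its 18 IDR peaks in this class. Densities per Mb of deep intronic sequence were 22.7 on X, 25.6 on 2L, 16.4 on 2R, 18.9 on 3L and 16.9 on 3R. Chromosome 4 has 0.259 Mb of such sequence.

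Host introns were long, and the summits lay well inside them. The distance limit and the exclusion of exons favour both in advance, and deep intronic sequence as a whole was not measured for comparison. The intron had a median length of 16376 bp, with quartiles at 9641 and 26746 bp, and the summit a median distance of 4702 bp to the nearest exon. Only 29 summits (5.28%) were within 500 bp of an exon, and 8 peak intervals touched one. Intron lengths and numbers in all passages refer to the gaps left when the exons of all transcripts of a host are merged. They are counted from the 5' end and need not match an intron of any single transcript. The first intron of the host held 185 peaks, the second intron 150 and later introns 214. For 339 peaks (61.7%, exact interval 57.5 to 65.8%) the nearest TSS belonged to a host gene, so for the rest a neighbour's TSS was nearer. A protein-coding gene hosted 537 of the peaks, and 12 lay in non-coding genes only.

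The 549 peaks were gathered in 313 host genes. Of these, 131 held 2 or more, 77 held 3 or more, 34 held 4 or more and 10 held 5 or more. These are counts of called peaks, and some neighbours lay closer than the median peak width of 424 bp. The 2 summits were 199 bp apart in disco-r, 201 bp in cdi and 202 bp in fra, tey and Mbs. The smallest gap was 200 bp in Antp and 203 bp in PRAS40. Close summits were not merged, so the counts can exceed the number of separate sites. Hosts with 2 or more contained 380 peaks (69.2%), and hosts with 3 or more contained 276 (50.3%). Nested or overlapping hosts share some peaks. Antp and CG46458 have the same 4, CG45088 and CG6191 the same 4, and ftz-f1 and lncRNA:CR45939 the same 3.

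The gene with the most was kirre on X, with 9. Their signals were 165, 160, 177, 141, 151, 163, 257, 129 and 198 in order along the gene, so no single site dominated. All 9 fell in the 3' part of the gene, between 267588 and 345641 bp from its 5' end, in introns 9 and 10. No IDR summit lay within 500 bp of a kirre TSS.

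In hth the 7 peaks were spread over introns 4 to 11, with signals between 129 and 295. The strongest was the one nearest the 5' end of the gene. SKIP also had 7, with signals of 232, 263 and 131 in introns 1 and 2 and 130, 121, 127 and 148 in intron 5. In both genes no promoter peak was present, and the strongest deep site had at most 167 in either replicate.

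The gene tara concentrated 6 peaks in 16.1 kb of deep intronic sequence. Those of intron 1 had signals of 212, 171, 465 and 664, and those of intron 2 had 213 and 161. The intron 2 summits were 205 bp apart and overlapped the same replicate 1 peak of 97.9. Replicate 1 gave 247 and replicate 2 gave 233 at the site of 465, and all 6 were matched in both replicates. Eip75B, an ecdysone-induced nuclear receptor gene, had 5 peaks of 408, 384, 311, 190 and 129, beside a promoter peak of 340.

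NetA, which encodes a secreted netrin for axon guidance, had 5 peaks of 317, 301, 298, 203 and 130 and no promoter peak. The 5 peaks of stx, a regulator of Polycomb protein levels, had signals of 330, 160, 151, 150 and 128, and its promoter peak had 175. Of the non-coding hosts, lncRNA:CR44357 had 5 (signals between 134 and 369), of which 3 also lay in coding genes. The other, lncRNA:CR32773, had 5 (between 128 and 302), of which 2 also lay in bi, a T-box transcription factor gene.

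**Figure D3:**
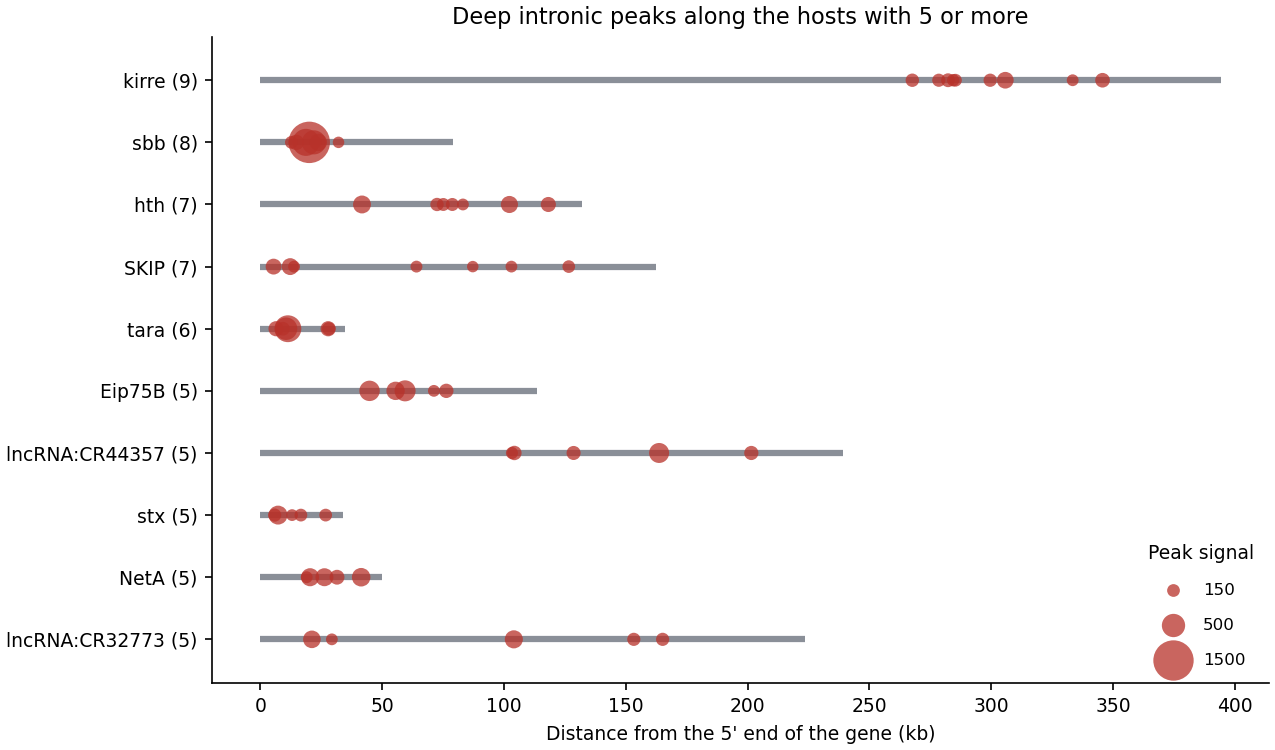
Each grey line is 1 of the 10 host genes with 5 or more deep intronic peaks, drawn from its 5' end by distance in kb (horizontal), with the number of peaks after its name. Red circles are summits, with area in proportion to peak signal. The peaks of kirre lie beyond 267 kb, and those of sbb crowd around its strongest site of 1582. The peaks of tara, with a strongest signal of 664, are split by a gap of 16535 bp.

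The 24 hosts with 4 peaks are given with the signal of the strongest peak. Among receptors, ligands and kinases were the Wnt receptor genes fz (514) and fz2 (152), Raf (648), Pvf3 (298), a growth factor gene, and Abl (258), a tyrosine kinase gene. The transcription regulators were Hr4 (823), crp (509), cic (472), a repressor acting under receptor tyrosine kinases, tai (371), a coactivator of the ecdysone receptor, Snoo (336) and the Hox gene Antp (194). Adhesion and scaffold genes were gukh (610), ed (257), Prosap (251) and Ten-a (240). Also in this set were E23 (370), an ecdysone-induced transporter gene, the translational repressor gene pum (250), the RhoGAP gene cv-c (196), PRAS40 (248), eIF5B (177), CG43759 (302), CG46458 (194), and CG45088 with CG6191 (238).

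The 43 hosts with 3 peaks had a wide range of annotated roles. Regulators of transcription or chromatin were simj, ush, gpp, Mnt, dar1, pnt, jing, ct, Tet, ftz-f1, mam, NFAT and luna. Signalling genes and genes for proteases that act on secreted proteins were vn, cv-2, Dad, sog, rdx, nmo, Drak, Ddr, Ptp10D, Fur1 and Meltrin. Adhesion, cytoskeletal, neuronal and RNA-binding genes were Fas3, pyd, spir, Grip, Trim9, sick and fne. The others were px, mtgo, CG6959, CG42238, CG6051, pxb, CG42663, CG8312, CG6040 and the non-coding genes lncRNA:CR46006, lncRNA:CR45939 and lncRNA:CR44999. Their strongest peaks ran between 137 in CG6040 and 755 in simj.

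Genes with more deep intronic sequence were hosts more often, yet held fewer peaks per kb of it. Of the 1760 protein-coding genes with any such sequence, 301 (17.1%) hosted a peak. The share was 5.12% with under 5 kb of deep sequence, 20.1% with 5 to 10 kb, 24.6% with 10 to 20 kb, 32.2% with 20 to 50 kb and 40.9% with more. The number of peaks per 100 kb ran the other way, 4.08, 3.62, 2.95, 2.16 and 0.998 over the same bins. Of the 115 genes with more than 50 kb, 68 held 0 peaks. The longest were Myo81F with 1905 kb, Pzl with 690 kb, lovit with 417 kb, CG17684 with 378 kb and DIP-lambda with 372 kb, whose deep sequence was soft-masked in 34.0 to 46.7% of bases, against 26.5% in kirre. Among genes masked in fewer bases, bru3 (215 kb, 20.9% masked) and Rbp6 (141 kb, 23.3% masked) also held 0.

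Host genes more often had a promoter peak as well. Of the 301 protein-coding hosts, 105 (34.9%, exact interval 29.5 to 40.6%) also carried a promoter peak, an IDR summit at most 500 bp from a TSS of theirs, against 18.3% (16.3 to 20.4%) of the 1459 genes with deep intronic sequence and no peak in it, and 14.0% of all protein-coding genes. In every length bin the share was higher among hosts, with overlapping intervals in the shortest and the longest bin. Hosts had 28.6%, 37.0%, 34.8%, 38.2% and 31.9% over the bins of rising deep sequence, against 20.1%, 16.7%, 17.5%, 16.6% and 10.3% of the genes without a deep peak. In equally long lists of single replicates the share of hosts was 29.8%, against 13.1% of the other coding genes, for replicate 1, and 42.1%, against 13.9%, for replicate 2. Among hosts with 3 or more deep intronic peaks, promoter signals were highest in px (2107 at the promoter), E23 (1054) and sbb (670). Hosts with 2 included RluA-1 (1280) and CG31145 (1169).

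Gene lists are described by their share of hosts and their peaks per 100 kb, and no difference between lists was tested. Of the 14 lists, 3 had an exact interval above the 17.1% of all coding genes with deep sequence, namely the ecdysone, signalling and RNA-binding lists, and the intervals of the rest contained it. The share is not matched for length, and it reached 32.2% among all genes with 20 to 50 kb of deep sequence. Genes of the ecdysone pathway, the steroid hormone system that times insect development, hosted peaks in 7 of 13 cases with deep sequence (53.8%, exact interval 25.1 to 80.8%). Their 21 peaks amounted to 6.96 per 100 kb, against 1.94 over all coding genes, and their median signal was 227. The hosts were Hr3 (strongest peak 1038), Hr4 (823), Eip75B (408), Eip74EF (397), E23 (370), EcR, the receptor itself (256), and ftz-f1 (227). In EcR the replicates gave 119 and 140, and in Eip74EF 189 and 200.

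Signalling pathway genes hosted peaks in 15 of 31 cases (48.4%, exact interval 30.2 to 66.9%), with 28 peaks at 5.37 per 100 kb. The strongest were in fz (514, with 221 in replicate 1 and 295 in replicate 2) and in N, the Notch receptor gene (504, with 237 in replicate 1 and 270 in replicate 2). Other hosts were the ETS factor gene pnt (338), dlp (322), the BMP ligand gene dpp (315), nkd (254), Wnt4 (217), Stat92E (210), InR (184), mam (181), fng (170), fz2 (152), kuz (140), ths (133) and bnl (129), with values of the strongest peak. Their median signal was 161, below the 179 of all deep intronic peaks.

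Chromatin and transcription regulators had 3 hosts of 14 (21.4%, 4.66 to 50.8%), which were sbb, Psc (287), a Polycomb group gene, and trx (222), the trithorax gene. Their 10.7 peaks per 100 kb rested on the 8 in sbb. Hox genes and cofactors had 3 hosts of 9, namely hth with 7 peaks, Antp with 4 and pb with 1 (168), which gave 4.45 per 100 kb. Genes of epithelial polarity and junctions had 7 of 22 (31.8%, 13.9 to 54.9%) and 4.14 per 100 kb, led by cno (261) and Abl (258). The group of GATA factors and blood cell genes had 3 of 5, led by ush (433, with 148 in replicate 1 and 279 in replicate 2) and grn (182). Its 6 peaks gave 8.16 per 100 kb.

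Genes for ion channels, neurotransmitter receptors and synaptic proteins lay at the other end, with 1 host of 28 (3.57%, 0.0904 to 18.3%) and 0.160 peaks per 100 kb. That host was Shal, a potassium channel gene, with a signal of 312. Neural transcription factor genes had 5 of 25 and 1.09 per 100 kb, led by bab2 (402) and bab1 (350). RNA-binding protein genes had 7 of 18 (38.9%, 17.3 to 64.3%) but 1.11 per 100 kb, led by how (265) and pum (250). Axon guidance and adhesion genes had 10 of 43 (23.3%, 11.8 to 38.6%) and 1.38 per 100 kb, led by caps (590) and fra (533). Muscle and mesoderm genes had 5 of 25 and 2.23 per 100 kb, with 9 of the 13 peaks in kirre and the strongest in how.

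The remaining lists had few genes with deep sequence. Tracheal genes had 1 host of 9 (bnl, 129), segmentation and axis genes 1 of 5 (cad, 293), and cell cycle and growth genes 2 of 5 (wts, 203, and Myc, 170). Peaks per 100 kb were 2.73, 2.05 and 15.5 in the same order. The last was the highest of the 14 lists, but it rested on 3 peaks in 19.3 kb. With so few genes, the exact intervals of these shares were wide.

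**Figure D4:**
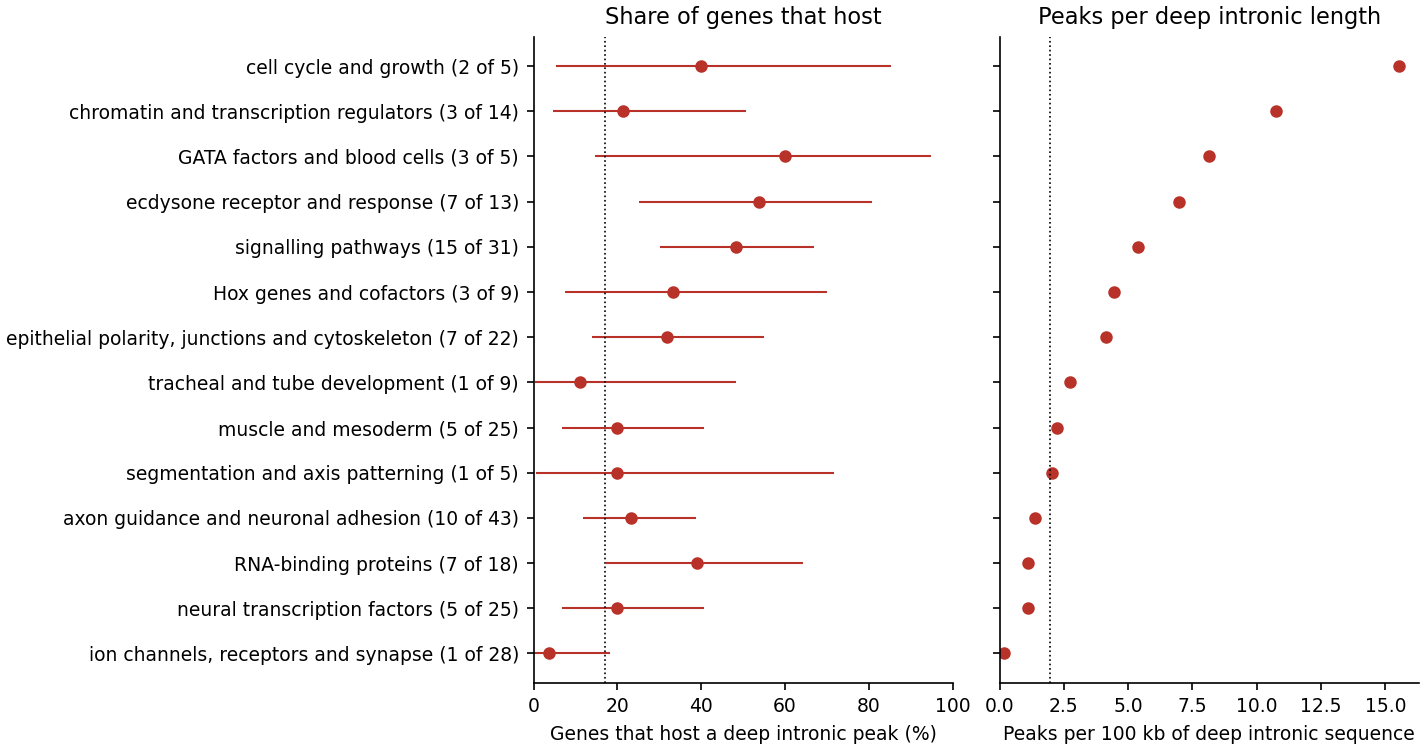
Left, percent of the genes of each list with deep intronic sequence that host a deep intronic peak, with exact 95% intervals as bars and the counts after the name. Right, peaks per 100 kb of deep intronic sequence of the same genes. Dotted lines mark 17.1% and 1.94 per 100 kb for all coding genes, and ion channel and synapse genes lie lowest on both axes.

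The base composition dipped at the summits. In windows that reach 100 bp to each side of the summit the median GC content was 35.8%, against 40.05% in windows centred 1000 bp to either side and 40.3% in all 136445 windows of equal length that tile deep intronic sequence. GC was below that of its own flanks at 382 of the 549 peaks (69.6%). The median at promoter peaks was 36.3% and at intronic peaks 1 to 5 kb away 35.8%, so the low value was shared by other classes.

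Of 24 known motifs searched on both strands of these windows, the forkhead core TAAACA was the most frequent among those that stood above the tiled windows. It was in 181 peaks (33.0%), against 18.8% of the tiled windows and 21.1% of the flanks. The GATA element AGATAA was in 97 (17.7%), against 11.4% and 11.0%, and the E-box CATATG in 49 (8.93%), against 5.77% and 7.10%. The AT repeat ATATATAT (5.28%, against 3.62% of tiled windows) and the GA repeat GAGAGAGA (2.00%, against 1.25%) were rare, and the GA repeat was no more frequent than in the flanks (2.37%). The forkhead, GATA and AT repeat motifs are rich in A and T, as the windows themselves are. Other peak classes held these motifs too. Intronic peaks 1 to 5 kb away had TAAACA in 31.2%, AGATAA in 17.3% and CATATG in 10.4%. Promoter peaks had them in 27.1%, 13.0% and 7.15%.

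Motifs of housekeeping promoters were rarer than at promoter peaks. The DNA replication-related element TATCGATA was in 2 deep intronic peaks (0.364%), against 4.28% of promoter peaks and 0.445% of tiled windows. The core promoter element named motif 1, GGTCACACT, was in 3 (0.546%), against 2.93% of promoter peaks and 0.102% of tiled windows. The shorter word CGATA, shared by the DNA replication-related element and the element of the insulator protein BEAF-32, was in 113 (20.6%), against 29.9% of promoter peaks and 19.9% of tiled windows. CCGGAA, the core of Ets factor sites, was in 2.19%, against 6.58% of promoter peaks and 4.86% of tiled windows. The Polycomb-linked Pho core GCCAT was in 25.3%, close to the 26.3% of promoter peaks, against 35.4% of tiled windows. The Zelda element CAGGTAG, bound by the activator of the early embryonic genome, was in 3 (0.546%), against 0.619% of promoter peaks and 0.859% of tiled windows. TGACGTCA and AACCGGTT, the cyclic AMP response and Grainyhead elements, were in 0 of 549, which at 3 counts allows a share of up to 0.546%. Tiled windows held them in 0.268% and 0.152%, below that limit, so these counts cannot show a depletion.

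Among all words of 5 letters found in at least 20% of the peaks, CACTG (reverse CAGTG) had the highest ratio over the tiled windows. The word was chosen here after its values were seen, and its shares are a description. It was in 275 of the 549 windows (50.1%, exact interval 45.8 to 54.4%), against 27.2% of the tiled windows. In windows centred 1000 bp on either side of the same summits the shares were 24.95% and 28.6%. Peaks and tiled windows of matching GC content, within the middle range of the peaks, had it in 54.9% and 24.1%. Deep intronic peaks of the replicate 1 list had it in 47.2% and those of the replicate 2 list in 50.5%.

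Longer words around this core stood out further. The 7-letter word CACTGAG (reverse CTCAGTG) was in 54 peaks (9.84%), against 1.77% of tiled windows, CAGTGCA in 74 (13.5%), against 3.09%, and CAGTGTA in 48 (8.74%), against 1.98%. Of the 10 words with the highest ratios, 7 of those with 7 letters and 4 of those with 6 letters contained the core. GTGCAC, which does not contain it, led the 6-letter words at 11.8%, against 4.04%.

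Within the IDR list the share with the core varied little with peak strength or distance. It was 54.0% in the strongest 137 deep intronic peaks and 52.2% in the weakest 138. It was 45.6% between 5000 and 7500 bp from a TSS and 53.7% between 10000 and 20000 bp. Peaks with the core had a median signal of 181 and those without it 178. Below the IDR list, pooled deep intronic peaks had it in 43.5% at ranks 4279 to 10000, 34.5% at ranks 10001 to 20000 and 32.8% at ranks 20001 to 30000, falling towards the share of the tiled windows.

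Nor was the core particular to deep introns. It was in 42.1% of promoter peaks (39.8 to 44.4%), 49.4% of intronic peaks 1 to 5 kb away (46.0 to 52.7%) and 54.4% of intergenic peaks over 5 kb away (47.1 to 61.5%). The interval for promoter peaks lies below that for deep intronic peaks, and those of the other classes overlap it.

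The core was more frequent beside the summit than on it, and more often in one orientation. Read 5' to 3' as CAGTG, matches were most frequent 60 to 119 bp past the summit in the direction of the word, at 11.5, 13.7 and 8.56 matches per 100 peaks in consecutive steps of 20 bp. In the steps that touch the summit they were 5.28 per 100 peaks from -20 to -1 bp and 2.55 from 0 to 19 bp, and on the 5' side they reached 7.29. As TCAGTG, with a T before it, the word was rarer and the imbalance between sides larger. In 66 of the 549 peaks (12.02%, exact interval 9.42 to 15.04%) TCAGTG lay 60 to 119 bp on the 3' side, against 16 (2.91%, 1.67 to 4.69%) at the same distance on the 5' side and 16 within 30 bp of the summit. This window was also chosen after the profile was seen. GTGTA, which overlaps the core in CAGTGTA but does not contain it, was also uneven. It lay in the same window on the 3' side in 128 peaks (23.3%) and on the 5' side in 52 (9.47%). CAGTG itself lay there in 145 (26.4%) and 90 (16.4%). Matches of GTGTA inside CAGTGTA were not counted apart, so these counts cannot show whether GTGTA away from the core was uneven.

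The asymmetry was present with the summits of each replicate. Among the deep intronic peaks of the replicate 1 list, 75 of 551 (13.6%) had TCAGTG on the 3' side and 12 (2.18%) on the 5' side. Replicate 2 gave 51 of 523 (9.75%) on the 3' side and 16 (3.06%) on the 5' side. Promoter peaks had 5.97% on the 3' side and 3.38% on the 5' side, intronic peaks 1 to 5 kb away 8.25% and 2.82%, and intergenic peaks over 5 kb away 17.9% and 0.513%. In deep introns the word followed the strand of the host gene in 30 of 74 matches and the opposite strand in 44, and in 8 peaks it lay on both sides, pointing outwards.

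**Figure D5:**
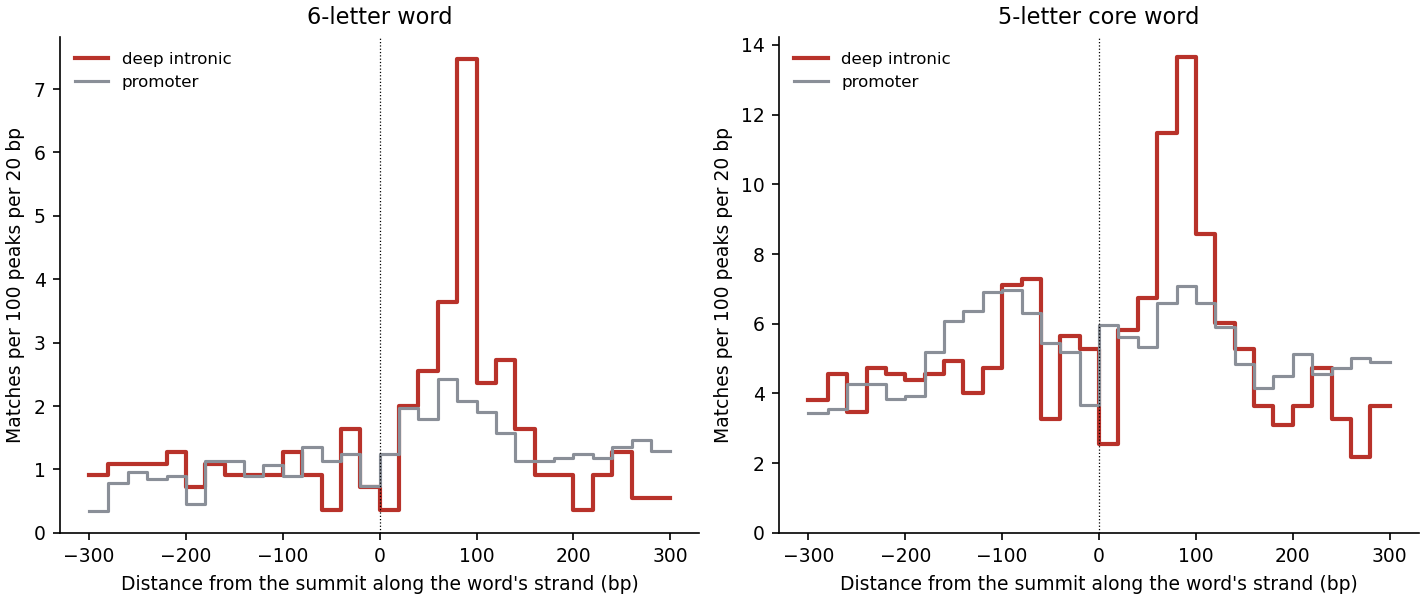
Matches per 100 peaks in steps of 20 bp (vertical) by distance from the summit, counted along the strand on which the word is read (horizontal, bp), for deep intronic peaks in red and promoter peaks in grey. The 6-letter word at left is TCAGTG and the 5-letter core at right is CAGTG. Deep intronic peaks rise to 7.47 matches per 100 peaks at 80 to 99 bp for the 6-letter word, and no such rise of it is seen on the 5' side.

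Bases around the core were also uneven. Over the 325 matches in deep intronic windows read as CAGTG, T stood at positions 8 to 5 before the core in 42.5%, 48.9%, 48.9% and 51.7% of cases, against 28.7%, 30.1%, 29.6% and 28.9% of matches in tiled windows. Directly before the core, A stood in 30.5% (23.5% in tiled windows) and T in 28.9% (25.2%), and the base before that was C in 38.8%, against 22.9% in tiled windows. At the second base after the core, A stood in 46.8%, against 31.6%.

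The following 6 runs show the arrangement at the strongest deep intronic peaks on X, 2L, 3L and 3R with TCAGTG 60 to 119 bp on the 3' side. Each is 261 bases centred on the summit, on the plus strand of dm6, and capitals mark TCAGTG or its reverse complement CACTGA.

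Gug (chr3L:8458219-8458479): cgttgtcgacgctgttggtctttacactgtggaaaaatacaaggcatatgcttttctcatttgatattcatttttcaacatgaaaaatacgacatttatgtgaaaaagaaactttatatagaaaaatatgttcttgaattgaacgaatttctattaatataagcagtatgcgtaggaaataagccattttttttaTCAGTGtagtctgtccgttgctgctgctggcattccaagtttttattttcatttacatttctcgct
CG6959 (chr3R:11849679-11849939): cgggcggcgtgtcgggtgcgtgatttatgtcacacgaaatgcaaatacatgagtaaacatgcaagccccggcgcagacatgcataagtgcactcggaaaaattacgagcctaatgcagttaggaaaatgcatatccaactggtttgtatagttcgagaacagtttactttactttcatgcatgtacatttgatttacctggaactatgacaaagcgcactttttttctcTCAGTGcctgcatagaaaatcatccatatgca
CG10283 (chr2L:18477471-18477731): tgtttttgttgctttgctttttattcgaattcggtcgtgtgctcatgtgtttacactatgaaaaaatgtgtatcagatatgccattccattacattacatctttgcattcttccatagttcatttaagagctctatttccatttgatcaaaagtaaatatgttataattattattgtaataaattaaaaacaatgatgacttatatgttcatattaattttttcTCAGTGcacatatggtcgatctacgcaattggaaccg
Raf (chrX:2303978-2304238): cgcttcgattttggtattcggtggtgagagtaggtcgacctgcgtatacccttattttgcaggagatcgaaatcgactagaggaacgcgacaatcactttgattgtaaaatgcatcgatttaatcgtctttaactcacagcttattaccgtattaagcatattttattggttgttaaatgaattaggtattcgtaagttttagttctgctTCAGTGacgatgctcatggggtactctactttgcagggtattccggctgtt
Fas3 (chr2L:18325186-18325446): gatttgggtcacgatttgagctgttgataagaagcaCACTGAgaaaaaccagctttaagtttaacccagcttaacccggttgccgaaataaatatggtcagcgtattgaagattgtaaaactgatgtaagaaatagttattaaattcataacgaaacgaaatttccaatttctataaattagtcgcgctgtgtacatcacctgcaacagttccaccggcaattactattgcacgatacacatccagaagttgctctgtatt
mtgo (chr2L:16620457-16620717): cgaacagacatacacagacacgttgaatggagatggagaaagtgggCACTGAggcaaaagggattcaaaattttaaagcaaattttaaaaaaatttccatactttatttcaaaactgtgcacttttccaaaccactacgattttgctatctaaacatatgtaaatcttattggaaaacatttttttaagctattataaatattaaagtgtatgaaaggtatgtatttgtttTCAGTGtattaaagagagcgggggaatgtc

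Runs of T precede the word in Gug, CG6959, CG10283 and mtgo, and in Fas3, where the word lies on the minus strand, the matching run of A follows it. The mtgo peak holds the word on both sides of the summit. Signals at these sites were 988 in Gug, 662 in CG6959, 397 in CG10283 (172 in replicate 1 and 221 in replicate 2) and 382 in Raf (181 in replicate 1 and 203 in replicate 2). They were 361 in Fas3, which encodes the adhesion protein Fasciclin 3 (195 in replicate 1 and 169 in replicate 2), and 359 in mtgo (173 in replicate 1 and 181 in replicate 2). Over all 66 peaks of this kind the median signal was 189, against 177 for the other deep intronic peaks, and 57.6% were matched in both replicates, against 58.0%.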

How the data were processed

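The authors deposited ChIP-seq peak lists on dm6 for each of 2 biological replicates, for both together (pooled) and for the IDR list. Each peak carries a signal value deposited by the authors, the caller's own enrichment measure, and a summit offset deposited by the authors as another column. Aligner, caller and IDR threshold: not given in the sources used here. Replicate and pooled lists are relaxed and hold 30000 peaks each. Lists on the dm3 assembly were not used here, and 1 strong site is not reported here.

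Summits were placed against Ensembl release 115 genes, and sequence came from Release 6. Members, gene lists (14), motifs and the rule for named genes were chosen with earlier results of these data known. The rule named hosts with 3 or more peaks, the 20 strongest peaks, 2 hosts per list, the peaks nearest the limit and 5 motifs. Other list hosts, empty genes, other motifs, the words and the word windows were named after their values were seen. Of 399 list entries, 391 matched genes. Replicate signals are those of the overlapping peak with the nearest summit. Intervals are exact binomial, cover counting error only, and no test between conditions was possible with 1 group. Functions were tested on simulated data. Software was matplotlib 3.10.9 for figures, and scipy 1.17.1, pandas 2.3.3 and numpy 2.4.6 under Python 3.11.15 for the rest.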

Additional observations from a re-analysis of the deposited data

How the results depend on the processing

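Alternatives left most shares in place. Between the lists of single replicates, without replicate 1 and without replicate 2, deep intronic peaks numbered 523 to 551 (12.2 to 12.9% of peaks), hosts with 2 or more 134 in each, the signal ratio over promoter peaks ran between 0.846 and 0.974, and coding hosts with a promoter peak between 29.8 and 42.1%. In the stronger 50% of the IDR peaks there were 259 deep intronic peaks and 57 hosts with 2 or more, 68.0% were matched in both replicates, and 18.8% of hosts had a promoter peak, against 7.66% of other coding genes. A limit of 2500 bp gave 935 peaks (21.9%) and 221 such hosts, and 10000 bp gave 218 peaks (5.10%) and 52. Matching in both replicates was 73.8% with any overlap of 1 bp and 83.6% against the whole relaxed lists. Promoter windows of 250 and 1000 bp gave 26.9 and 43.5% of hosts, against 10.4 and 16.4% of other coding genes. Counts moved with the number of peaks each alternative admits, and the cause of the moves in shares was not tested. Protein-coding hosts only, intervals clear of exons and 1 peak per set of identical coordinates changed none of the counts by more than 1.5 times. Shares of windows with the core word were 19.7% within 50 bp of the summit and 69.4% within 200 bp. Longer windows hold any word more often. Windows of 100 bp centred 300 to 900 bp from the same summits held it in 11.7 to 17.5%, and no background share was counted for the setting of 200 bp. No paired analysis was possible because there is 1 group. Unknown depth, 2 libraries and the lack of an untagged library here limit these values.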
